A study of Mus musculus with 8 samples.

Results

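Embryos injected with Snrpb and Snrpd2 mRNA together were compared with embryos injected with either mRNA alone, within the 1-cell and the 2-cell stage. All embryos were mouse embryos from B6CBA F1 crosses that had been injected as zygotes, and whole-embryo polyA RNA was sequenced. At the 1-cell stage, RNA was taken 5 h after injection from embryos given Snrpb mRNA, Snrpd2 mRNA or both. At the 2-cell stage, it was taken 24 h after injection from embryos given the same 3 injections. Each condition was 1 library from a pool of 40 embryos that came from 3 independent experiments, so the comparison rests on 2 combined and 4 single-injection libraries out of 8 in the series. Embryos injected with mCherry mRNA, which encodes a fluorescent protein, are given beside single genes as background and took no part in choosing or testing genes. The genes compared were the 13921 with 50 reads or more in at least 1 of the 6 libraries, out of 21553 with a value. Snrpb and Snrpd2 themselves were left out, and 7630 other genes did not reach 50 reads. There were 38 genes whose highest count was exactly 50 and 44 genes with a highest count of 49.

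Sm proteins form a ring around a short stretch of each spliceosomal small nuclear RNA, and the ring is a step in making the small nuclear ribonucleoproteins that remove introns. SmB, encoded by Snrpb, and SmD2, encoded by Snrpd2, sit in the same ring together with the products of Snrpd1, Snrpd3, Snrpe, Snrpf and Snrpg. The assembly of the ring is carried out by the SMN complex after some Sm proteins have been methylated by the PRMT5 complex. Fertilised mouse embryos first live on RNA stored in the oocyte, and the embryonic genome is transcribed widely from the 2-cell stage. Splicing factors are among the products that this switch needs. No condition had a second library, so single ratios below carry 95% intervals that cover counting error only. In the fits with a separate combined effect for each stage, the spread between pools was estimated from the difference between the Snrpb and Snrpd2 libraries. In the fit over both stages, a combined effect that differed between the stages was counted as spread too.

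The 6 libraries held between 39492734 and 59979046 counted reads, which puts the floor of 3 reads between 0.05 and 0.076 CPM (counts scaled to a common library size). Oocyte genes were abundant in each: Dppa3 had 77031 to 126555 reads and Nlrp5, part of the subcortical maternal complex, 7085 to 35149. The libraries also held reads of genes typical of other cells. Among 32 genes of the cumulus and granulosa cells that surround the oocyte, 1, Ereg, had no read in any of the 6 libraries. Of 14 blood genes, 4 (Hbb-bt, Hbb-bs, S100a8 and S100a9) had none. The sperm genes Odf3 and Smcp, 2 of 16, had none either. Some libraries stood apart by gene length. Among 10356 genes with 50 reads or more in all 6 libraries, divided into 6 classes from short to long, the median log2 ratio of the combined to the Snrpb library at the 1-cell stage went from -0.10 in the shortest class to 0.17 in the longest. The ratio to the Snrpd2 library at that stage ran from 0.02 to 0.00. In 2-cell embryos the order was the other way. There the ratio to the Snrpd2 library went from -0.19 to 0.23 and that to the Snrpb library from 0.03 to -0.07. The libraries that differed from the others of their stage in this way were the 1-cell Snrpb and the 2-cell Snrpd2 library, and a cause was not tested.

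**Figure D1:**
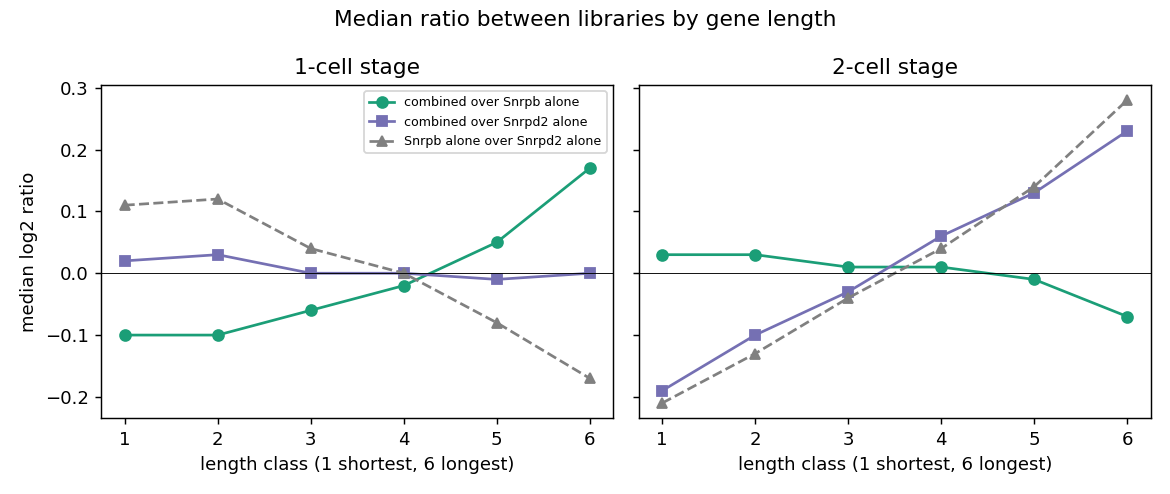
Median log2 ratio (vertical axis) between pairs of libraries for genes in 6 length classes (horizontal axis, 1 shortest), for 10356 genes with 50 reads or more in all 6 libraries. Slopes appear in the pairs that hold the 1-cell Snrpb library (0.17 in the longest class against the combined library) and the 2-cell Snrpd2 library (0.23).

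The injected mRNAs were present in the libraries that should hold them. At the 1-cell stage Snrpb stood at 43849.91 cRPKM (reads scaled to gene length and to the library's total) in the library given Snrpb alone. It was at 11913.49 cRPKM in the combined library and 6.09 in the library given Snrpd2 alone. Snrpd2 stood at 17926.25 cRPKM with Snrpd2 alone, at 9141.58 in the combined library and at 0.85 with Snrpb alone. By the 2-cell stage Snrpb was at 1704.01 cRPKM with Snrpb alone, 876.26 in the combined library and 26.18 with Snrpd2 alone. Snrpd2 was then at 5239.86 cRPKM with Snrpd2 alone, 4726.30 in the combined library and 5.20 with Snrpb alone. Each mRNA was thus lower in the combined library than in its own single-injection library at both stages. The injected Snrpb reads took 4.876% of all reads in the 1-cell Snrpb library and 1.325% in the combined one.

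No gene passed the test for a difference between combined and single injections. With edgeR's quasi-likelihood test and stage as a term, 0 of 13921 genes (0%) had an adjusted p below 0.05, and 274 (1.97%) had an unadjusted p below 0.05. Within the 1-cell stage the count was 0 as well, with 487 genes (3.5%) below 0.05 before adjustment and a smallest adjusted p of 0.479. Within the 2-cell stage it was 0, with 249 genes (1.79%) before adjustment. The difference between the stages, tested as an interaction, gave 0, with 380 genes (2.73%) before adjustment. DESeq2's Wald test called 0 genes over both stages, 0 at the 2-cell stage, 0 for the interaction and 6 at the 1-cell stage, and limma on log2 cRPKM called 0 in each comparison. The fits had 3 and 2 residual degrees of freedom, in which the combined library was assumed to vary like the single ones. In the fit over both stages, a difference particular to a stage was counted as spread.

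In 1-cell embryos the combined library differed from each single library in about as many genes as the single libraries did from each other, and in 2-cell embryos in fewer. A gene was counted as apart when its scaled reads differed at least 2-fold between a pair of libraries and the interval of the ratio excluded 1. In 1-cell embryos 683 genes (4.91%) were apart between the combined and the Snrpb library and 720 (5.17%) between the combined and the Snrpd2 library. Between the Snrpb and the Snrpd2 library the number was 677 (4.86%). Of the 720 genes, 532 were higher in the combined library and 188 lower. In 2-cell embryos the counts were 610 (4.38%), 685 (4.92%) and, between the single injections, 937 (6.73%). The SD of the log2 ratio was taken over genes with 50 reads or more in each compared library of the stage, fewer genes than for these counts. It was 0.29, 0.30 and 0.29 for the pairs at the 1-cell stage and 0.32, 0.37 and 0.43 at the 2-cell stage.

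**Figure D2:**
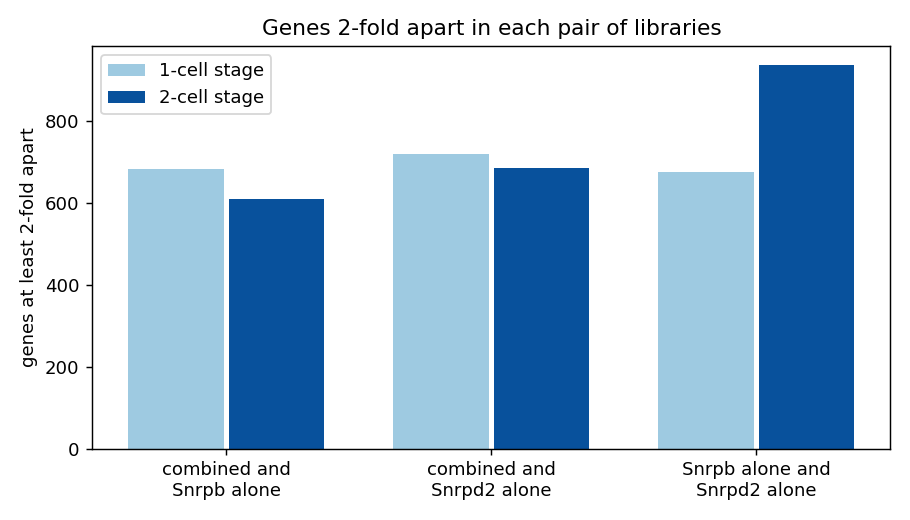
Number of genes (vertical axis, of 13921) at least 2-fold apart with an interval that excludes 1, for each pair of libraries (horizontal axis) and stage (colour). The pair of single injections has 677 genes at the 1-cell stage and 937 at the 2-cell stage, against 610 to 720 for pairs with the combined library.

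The position of the combined library was described for the genes at least 2-fold apart between the Snrpb and Snrpd2 libraries, a choice in which the combined library played no part. Another library tends to lie between a pair chosen for being far apart, so these positions are a description only. On a log2 scale from 0 at the Snrpd2 library to 1 at the Snrpb library, the combined 1-cell library had a median position of 0.549 over 677 genes, with quartiles at 0.119 and 0.905. It lay beyond the Snrpd2 library for 114 of them and beyond the Snrpb library for 128. The 437 genes higher with Snrpb alone had a median position of 0.679, and the 240 higher with Snrpd2 alone one of 0.251. At the 2-cell stage the median was 0.536 over 937 genes (quartiles 0.240 and 0.772), and 108 and 121 genes lay beyond the Snrpd2 and the Snrpb library. For the 418 genes higher with Snrpb alone the median was 0.615 and for the 519 higher with Snrpd2 alone 0.497. Ctsk and Mmp9, named after their values were seen, encode a lysosomal and a secreted protease. Ctsk had 1321 reads in the 1-cell Snrpb library, 4 in the Snrpd2 library, 4 in the combined library and 0 in the mCherry library. Mmp9 had 435, 20, 20 and 36 reads in the same order. Both were high in the 1-cell Snrpb library alone, and the combined library, which was also given Snrpb, was at the level of the others.

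In 1-cell embryos given both mRNAs, 163 genes (1.17%) stood at least 2-fold above both single injections and 73 (0.524%) at least 2-fold below both, which makes 236 (1.7%) outside. Most of them were genes with few reads. Among the 9276 genes with 200 reads or more in a 1-cell library, 22 were above and 1 was below. From 50 up to 200 reads, 56 of 2466 were above and 22 below. Of the 2179 genes that reached fewer than 50 reads at this stage, 85 were above and 50 below. The genes described next are those with 200 reads or more and a symbol, 21 in number, and they were picked after their values were seen. Some of them, such as Fst, Jun, Cspg4, F2rl2 and Fzd1, reached 200 reads only in the combined library among the compared 1-cell libraries. For these the read condition was not independent of the difference. In a pool of whole embryos, fewer cells of a type and less RNA per cell cannot be told apart.

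The gene furthest above was Fst, which encodes follistatin, a secreted binder of activins. It had 563 reads in the combined library, 113 with Snrpb alone, 118 with Snrpd2 alone and 59 with mCherry. The ratio was 5.56 (interval 4.53 to 6.87) to the Snrpb library and 5.03 (4.12 to 6.19) to the Snrpd2 library. Inhba, which encodes a subunit of activin, stood at 621 reads against 255 and 259, with 99 in the mCherry library. The 4 libraries of Fst at the 2-cell stage held 80 reads with both, 70 with Snrpb, 87 with Snrpd2 and 148 with mCherry, so the combined library was no longer set apart there. Inhba had 13, 42, 8 and 5 reads in that order and lay between the single injections.

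Jun, a subunit of the AP-1 transcription factor, had 526 reads in the combined library, 147 with Snrpb alone, 103 with Snrpd2 alone and 90 with mCherry. Its ratio was 3.99 (3.32 to 4.83) to the Snrpb and 5.39 (4.36 to 6.72) to the Snrpd2 library. In 2-cell embryos Jun had 1011 reads with both, 711 with Snrpb, 2142 with Snrpd2 and 1277 with mCherry, and the combined library lay between the single ones. The promoter of Jun is shown because Jun is known to be driven in part by AP-1-type sites of its own. The window runs from 250 bases before to 50 bases after the RefSeq start, chr4:95052173-95052472 of GRCm38.p6 on the minus strand, and the capitals mark the AP-1-type motif TGACATCA.
Jun: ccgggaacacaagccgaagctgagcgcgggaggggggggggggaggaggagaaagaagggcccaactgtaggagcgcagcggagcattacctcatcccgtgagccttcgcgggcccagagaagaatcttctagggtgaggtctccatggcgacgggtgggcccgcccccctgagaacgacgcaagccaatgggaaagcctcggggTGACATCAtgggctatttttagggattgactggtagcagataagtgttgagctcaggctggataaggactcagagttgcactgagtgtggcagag
The motif, searched on both strands and with no other motif, had 1 match, whose first base lies at -45 from the start. The same letters occur in 1189 of 32851 RefSeq promoter windows of this length (3.62%). This describes the sequence and says nothing of binding in these embryos.

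The 6 genes that DESeq2 called at the 1-cell stage were higher in the combined library. They were Fjx1, Ndrg1, Scd1, Dusp4, Jun and Fst, with DESeq2 adjusted p-values of 0.0014, 0.00142, 0.00819, 0.0106, 0.0106 and 0.0214. Ndrg1, a gene known to respond to stress and hypoxia, had 103 reads with both, 27 with Snrpb, 24 with Snrpd2 and 21 with mCherry. Scd1, a desaturase that makes monounsaturated fatty acids, had 123, 36, 33 and 29 reads in that order. Dusp4, a phosphatase that switches off MAP kinases, had 197, 64, 63 and 62. Fjx1, a secreted four-jointed homologue, had 132, 20, 32 and 22. In each of these the 3 other 1-cell libraries lay close together and the combined library stood above them. Over 14 alternatives, edgeR, limma and DESeq2 adjusted p-values of these genes reached up to 1 (0.613 for Fst), and each gene was higher in the combined library in 14 of 14. None passed edgeR's test with all libraries, where the smallest adjusted p, 0.479, was shared by Ndrg1, Fst and Fjx1. At the 2-cell stage no library held fewer than 530 reads of Ndrg1, Scd1, Dusp4 or Fjx1. The combined 2-cell library had 1218 reads of Ndrg1 against 986 and 1216, and 836 of Scd1 against 1066 and 1013. The 6 calls thus came from the 1-cell stage, and the difference between stages passed the test for none of them.

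The other well-counted genes above both single injections at the 1-cell stage had varied products. Col4a1 and Col4a2, the paired chains of type IV collagen of basement membranes, were both among them. Col4a1 had 1496 reads with both, 769 with Snrpb, 651 with Snrpd2 and 531 with mCherry. Col4a2 had 955, 471, 431 and 577. F2r and F2rl2, 2 receptors of the thrombin-activated family, stood at 892 and 206 reads. F2r had 348 reads with Snrpb alone and 453 with Snrpd2 alone, and F2rl2 had 37 and 61. The intermediate filament gene Krt8 had 1395 reads with both, 751 with Snrpb, 400 with Snrpd2 and 492 with mCherry. Cspg4, a membrane proteoglycan, had 239 reads against 42 and 84. The Wnt receptor gene Fzd1 had 450 against 180 and 172, but 319 in the mCherry library. Timp1, an inhibitor of matrix proteases, had 401 against 221 and 211 and was at the edge of the 2-fold criterion. The remaining genes were Oaf, Rgcc, Cables1, Bok (a BCL2 family member), Mt1 (a metallothionein), Rnf149, Igfbp6, Crim1, App and Acsbg1. Their smaller log2 distance to a single library ran from 1.02 in Acsbg1 to 1.57 in Oaf.

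**Figure D3:**
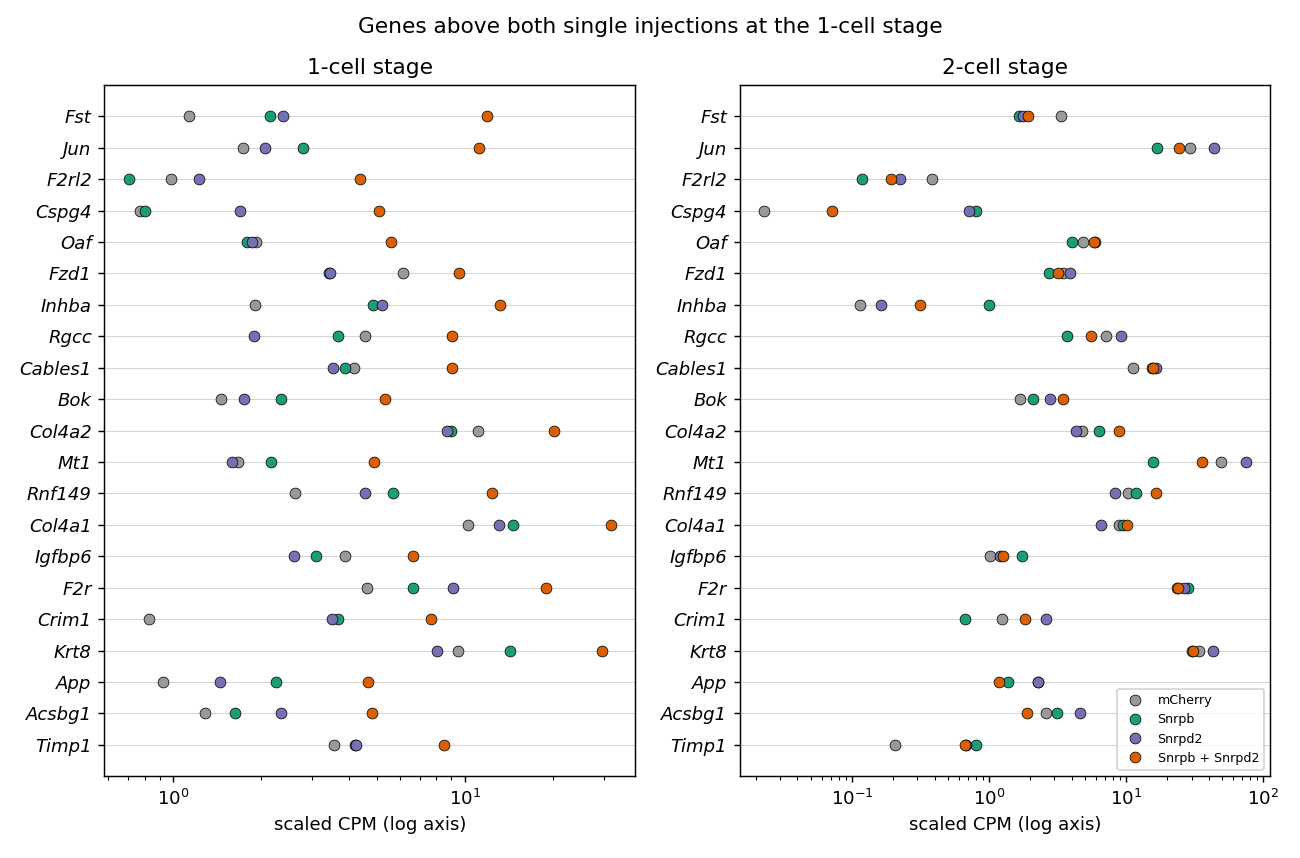
Scaled CPM (horizontal log axis) in each library for the 21 genes with a symbol and 200 reads or more that stood at least 2-fold above both single injections at the 1-cell stage, at that stage (left) and at the 2-cell stage (right). At the 1-cell stage the combined library (orange) is rightmost for each gene by the choice of genes, with Fst at 563 reads, and at the 2-cell stage it lies among the others for most.

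The same 22 genes were looked up in the 2-cell libraries, which had no part in their choice. The combined library was above both single injections in 5 of them (22.7%), below both in 5 (22.7%) and between in 12. Over all 13921 genes the shares at that stage were 27.4% above and 27.6% below. For the 163 genes above at the 1-cell stage at any depth, 44 (27.0%) were above both at the 2-cell stage and 56 (34.4%) below both. Of the 73 genes below, 16 (21.9%) were below both again and 30 (41.1%) above. The side on which a gene stood in 1-cell embryos was therefore not seen more often than in all genes at the 2-cell stage.

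The largest 1-cell ratios came from genes with few reads. Zfp711, a zinc finger gene, had 32 reads in the combined library and 0 with Snrpb, Snrpd2 or mCherry. It was at least 11.9-fold higher than the Snrpb library and at least 11.3-fold higher than the Snrpd2 library, counted against the floor of 3 reads per library. Armcx6 had 14 reads, Il20rb 13, Tead4 13 and Fgf4 9, each against 0 in both single libraries. For Fgf4, a growth factor gene of the inner cell mass, that gave at least 3.35-fold and 3.17-fold. Tead4, a transcription factor of the trophectoderm, and Fgf4 each had 8 reads in the mCherry library. Armcx6 had 9 reads there and Il20rb 0. All 5 were better counted in 2-cell embryos, where Tead4 had 128 reads with both, 147 with Snrpb and 139 with Snrpd2. Ptx3, which encodes pentraxin 3 of the cumulus matrix, had 119 reads against 7 and 3, and 4 with mCherry. Its ratio was 19 (8.92 to 48.2) to the Snrpb library.

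Among the genes below both single injections at the 1-cell stage, Sfrp2, a secreted Wnt modulator, was the one with 200 reads or more. It had 0 reads in the combined library, 209 with Snrpb, 19 with Snrpd2 and 1 with mCherry. It was at least 62.4-fold lower than the Snrpb and at least 6-fold lower than the Snrpd2 library. Its edgeR adjusted p was 1 and became 5.73e-05 without the 1-cell Snrpd2 library, the lowest of 14 alternatives, which reached up to 1. The next were Tmem18 (0 reads against 22 and 13), Porcn (0 against 15 and 12), Cpne2 (0 against 10 and 10), Cct6b (0 against 8 and 9) and Vsir (0 against 22 and 7). Porcn encodes the acyltransferase that makes Wnt proteins fit for secretion, and Cct6b a chaperonin subunit. Their mCherry counts were also low, between 2 and 11 reads. For genes at this depth the bounds were from 2.39-fold lower for Cct6b to 6.57-fold lower for Tmem18 against the Snrpb library.

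In 2-cell embryos given both mRNAs, 68 genes (0.488%) stood at least 2-fold above both single injections and 126 (0.905%) below both, in all 194 (1.39%). Among the 10212 genes with 200 reads or more at this stage, 5 were above and 7 below. From 50 up to 200 reads the numbers were 50 and 93 of 3299. The 5 well-counted genes above were Enpep, Thbs1, Lmx1b, Gucy1a2 and Vtn, picked after their values were seen. Among the compared 2-cell libraries, each reached 200 reads only in the combined one, where it stood above. The read condition was thus not independent of the difference. Enpep, a membrane peptidase that cleaves angiotensin, had 205 reads with both, 67 with Snrpb, 63 with Snrpd2 and 175 with mCherry. Thbs1, the matrix protein thrombospondin 1, had 260, 56, 117 and 148. Vtn, vitronectin, had 287, 139, 142 and 110, and the homeobox gene Lmx1b 215, 98, 99 and 119. Gucy1a2, a subunit of the nitric oxide receptor, had 270, 130, 137 and 244. For Enpep, Thbs1, Lmx1b and Gucy1a2 the mCherry library was the nearest to the combined one, and for Vtn it was the farthest.

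The 7 well-counted genes below both were Btbd3, Tmem53, Prss35, Prdm9, Pim1, Ndrg3 and Zkscan2. Btbd3 had 28 reads with both, 92 with Snrpb, 237 with Snrpd2 and 118 with mCherry. Prdm9, the histone methyltransferase that places meiotic recombination sites, had 70, 214, 197 and 120. Pim1, a serine/threonine kinase, had 99, 204, 235 and 210, and Zkscan2 had 133, 271, 416 and 312. The remaining 3 were at 50 (Tmem53), 93 (Prss35) and 95 reads (Ndrg3) in the combined library. For each of the 7 genes the combined library was the lowest of the 4 at this stage.

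By distance to the nearer single library, whatever the depth, the 6 highest at the 2-cell stage were Nlrp10, Pck1, Zfp365, Myof, Selenon and Cd52. Myof, a ferlin of membrane repair, had 176 reads with both, 20 with Snrpb, 36 with Snrpd2 and 133 with mCherry. Its edgeR log2 difference was 2.79 at this stage, with an adjusted p of 1. Selenon, a selenoprotein of the endoplasmic reticulum, had 93, 21, 21 and 50. Cd52, a surface glycoprotein of lymphocytes, had 137, 32, 29 and 23. Zfp365 had 69, 4, 12 and 18. Pck1, a gluconeogenic enzyme, and Nlrp10 were at 16 and 10 reads, against at most 2 in a single library. The 6 lowest were Slc36a2, Adamts8, Rin1, Baiap3, Cyth4 and Sppl2b. Rin1, a Ras effector, had 2 reads with both, 59 with Snrpb, 52 with Snrpd2 and 21 with mCherry. Baiap3, which acts in dense-core vesicle traffic, had 1, 28, 25 and 1, so the combined library matched the mCherry one. Slc36a2, an amino acid transporter gene, had 0 against 43 and 22, and 3 with mCherry. Adamts8, a matrix protease gene, had 0 against 13 and 87, and Cyth4 and Sppl2b had 0 against 7 to 14 reads.

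Looked up in the 1-cell libraries, the 68 genes above at the 2-cell stage were above both single injections in 27 cases (39.7%) and below in 20 (29.4%). The shares over all genes at the 1-cell stage were 34.7% and 31.5%. The 126 genes below at the 2-cell stage were below both in 37 cases (29.4%) and above in 44 (34.9%).

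Counting every size of difference, 1345 genes (9.66%) had the combined library above both single libraries at both stages and 1262 (9.07%) below both at both. A further 2529 (18.2%) were on opposite sides at the stages. At least 2-fold at both stages were 4 genes above (0.0287%) and 4 below (0.0287%). Those above were Zfp365, Pck1, Mllt6 and Gm10101. Zfp365 reached the minimum of reads for a compared gene only in the combined 2-cell library (69 reads). Pck1 reached it only in the combined 1-cell library (78 reads). Both thus entered the comparison through a library in which they stood above. Those below were Dnajc6, Vsir, Cul9 and Arhgef5. Arhgef5, a guanine nucleotide exchange factor, had 9 reads against 26 and 30 at the 1-cell stage and 11 against 60 and 61 at the 2-cell stage. Cul9, a cullin that binds p53, had 13 against 43 and 33 and then 15 against 45 and 63. No gene among these 8 reached 200 reads.

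Ranked by the smaller of its distances at the 2 stages, and with 50 reads or more at each, Pdgfc was the highest. Pdgfc, a platelet-derived growth factor, had 168 reads with both, 105 with Snrpb, 59 with Snrpd2 and 51 with mCherry in 1-cell embryos. In 2-cell embryos it had 64, 19, 0 and 20. Ap5z1, an adaptor protein subunit, had 186 reads against 118 and 95 and then 75 against 28 and 45. Ppp1r12c, a myosin phosphatase subunit, had 75 against 39 and 34 and then 174 against 112 and 111. Wnt5a, a Wnt ligand, had 53 against 37 and 36 and then 182 against 76 and 139. Abca9, an ABC transporter, was better counted, with 409 against 295 and 287 and then 186 against 101 and 135. Its mCherry libraries held 388 and 191 reads, close to the combined ones. The log2 difference of Abca9 over both stages was 0.70 (SE 0.20), with an edgeR adjusted p of 1. The others were Myof, Slc7a7 and Aarsd1, at 0.79 to 1.86 on the same scale. Slc7a7 and Aarsd1 also had mCherry counts above both single libraries at each stage. Among the compared libraries, Pdgfc, Myof and Ap5z1 reached 50 reads only in the combined one at the 2-cell stage. Ppp1r12c and Wnt5a did so at the 1-cell stage and Aarsd1 at both. They thus met the read condition through a library in which they stood above. The ranking did not require intervals that exclude 1. That of Wnt5a to the 1-cell Snrpd2 library was 0.998 to 2.44. That of Aarsd1 to the 2-cell Snrpb library was 0.969 to 2.46.

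The lowest by the same ranking was Dnajc6, which encodes auxilin, a cochaperone that uncoats clathrin vesicles. Dnajc6 had 14 reads with both, 35 with Snrpb, 51 with Snrpd2 and 23 with mCherry in 1-cell embryos, and 21, 115, 58 and 67 in 2-cell embryos. Its log2 difference over both stages was -1.74 (SE 0.54), with an edgeR adjusted p of 1. The best counted were Foxred2 and Adamts9. Foxred2, a flavoprotein of the endoplasmic reticulum, had 734 reads against 1203 and 1088 and then 187 against 362 and 302. The mCherry libraries held 915 and 211 reads of it. Adamts9, a protease of the extracellular matrix, had 95 against 183 and 191 and then 341 against 487 and 609, with 88 and 455 in the mCherry libraries. The log2 difference was -0.61 (SE 0.18) for Foxred2 and -0.69 (SE 0.19) for Adamts9, and both adjusted p-values were 1. Avil, Hsd3b1, Jhy, Acrv1 and Tulp2 completed the list, and each of these had a ratio whose interval included 1. The single libraries of Hsd3b1, a steroid-making enzyme, were far apart at each stage, with 181 reads with Snrpb and 35 with Snrpd2 in 1-cell embryos and 10 and 466 in 2-cell embryos.

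**Figure D4:**
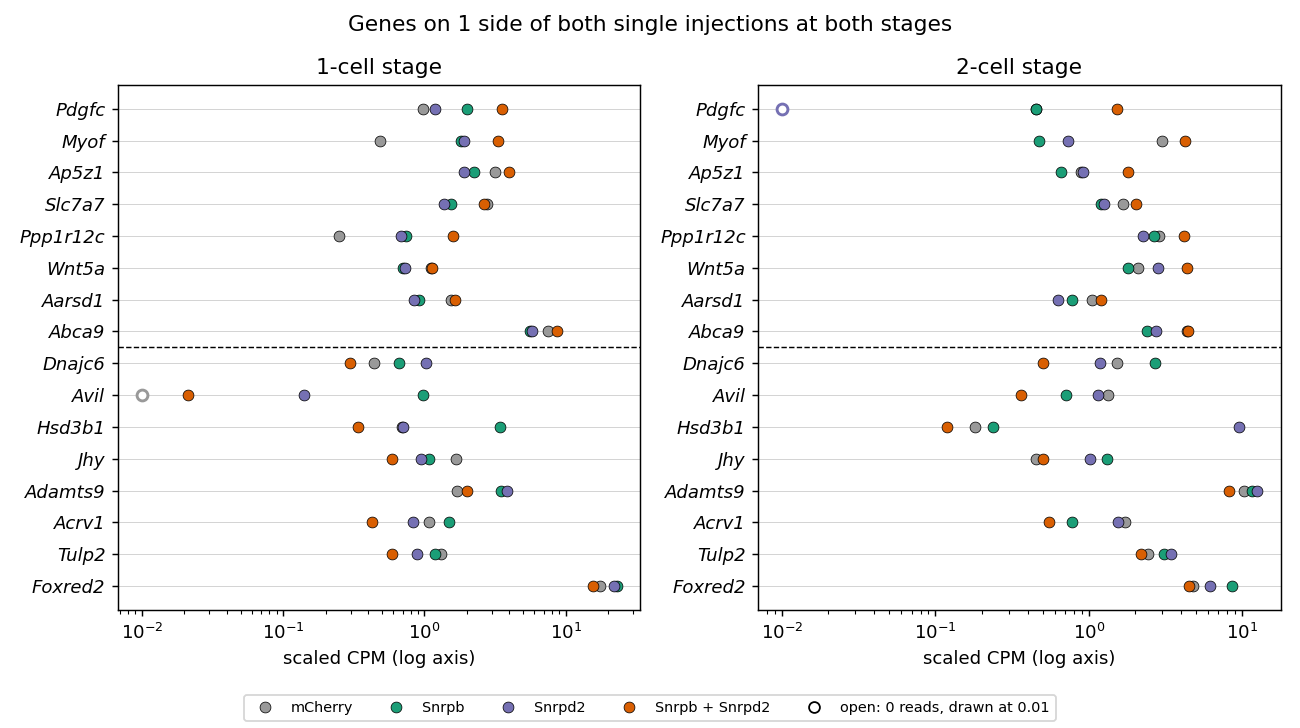
Scaled CPM (horizontal log axis) in each library for the 8 genes highest (above the dashed line) and the 8 lowest (below it) in the combined library at both stages, with 0 reads drawn as open circles at 0.01. The combined library (orange) lies outside both single libraries (green and purple) in each row by the choice of genes, and the mCherry library (grey), which took no part in the choice, lies close to it for Abca9 (388 and 409 reads at the 1-cell stage).

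For some genes the combined library stood on opposite sides at the 2 stages. At least 2-fold in each direction were 7 genes. Of these, 6 (Cspg4, Dio2, Jrk, Oplah, Slc36a2 and a clone named 4930438A08Rik) were above at the 1-cell stage and below at the 2-cell stage, and Zfp458 was the reverse. Cspg4 had 239 reads against 42 and 84 in 1-cell embryos and 3 against 34 and 35 in 2-cell embryos. Dio2, which activates thyroid hormone, had 27 against 8 and 10 and then 7 against 53 and 62. The smallest interaction p-values toward a signed log2 difference that was higher at the 1-cell stage were those of Bhlhe23, Ints6l, Dusp4 and Scd1. Bhlhe23 had 14 reads against 1 and 1 in 1-cell embryos and 1048 against 1522 and 1889 in 2-cell embryos. The mCherry libraries held 9 and 1083 reads of it. Ints6l had 28 against 6 and 4 and then 273 against 498 and 681, with 16 and 348 in the mCherry libraries. Toward a signed difference higher at the 2-cell stage they were those of Cdc42ep1, Porcn, Cd6 and Fahd1, in which the combined library was below both single ones at the 1-cell stage. Cdc42ep1, an effector of the GTPase CDC42, had 4 against 27 and 23 and then 1112 against 1023 and 1009. Its mCherry reads were 26 and 856. Each of these 8 genes had an edgeR adjusted p of 1 for the interaction, so no difference between the stages was shown.

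The genes of the splicing machinery were described from lists, beside the same figures for all genes. A list is given by how many of its members had the combined library above or below both single libraries and by the median log2 difference at each stage. Over all 13921 genes these were 34.7% above, 31.5% below and a median of 0.00 at the 1-cell stage, and 27.4%, 27.6% and -0.01 at the 2-cell stage. The lists below had 0 members that passed edgeR's test. Of the 5 other genes of the Sm ring that were found, 0 were above both single libraries at either stage, 2 were below at the 1-cell stage and 3 at the 2-cell stage. Snrpe had 3830 reads with both, 4900 with Snrpb, 5416 with Snrpd2 and 2979 with mCherry in 1-cell embryos. Snrpg had 1440, 1528, 2359 and 833, and Snrpd1 5085, 6178, 5546 and 5919. After scaling, Snrpg lay between the single libraries at this stage, at 30.56 CPM with both, 29.07 with Snrpb and 47.45 with Snrpd2. At the 2-cell stage Snrpg had 6279 reads with both, 6955 with Snrpb, 10633 with Snrpd2 and 9197 with mCherry. The median over the 5 genes was -0.16 at each stage. Without the Snrpd2 library it was -0.04 at the 1-cell and 0.00 at the 2-cell stage, and without the Snrpb library -0.32 and -0.35.

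The 39 proteins specific to single small nuclear ribonucleoproteins had 12 genes above and 15 below at the 1-cell stage and 5 and 14 at the 2-cell stage, with medians of 0.00 and -0.12. The 2-cell median was 0.02 without the Snrpd2 library and -0.24 without the Snrpb library. Eftud2, a GTPase of the U5 particle, was the highest, with 2976 reads against 2676 and 2651 and then 519 against 391 and 447. The 28 assembly genes had 12 above and 10 below, then 6 and 9. Wdr77, a partner of PRMT5, had 34 reads against 13 and 14 at the 1-cell stage and 2455 against 1534 and 3205 at the 2-cell stage. Coil, the marker of Cajal bodies, had 474 against 719 and 908 at the 2-cell stage. Among 47 SR and hnRNP regulators, 8 were above and 24 below at the 1-cell stage, with a median of -0.09. That median was -0.02 when libraries were scaled by their totals, a scaling that moved the median of all genes to 0.07. Srsf7, an SR protein, had 1489 reads with both, 2441 with Snrpb and 1738 with Snrpd2, and then 961, 1027 and 3869. The 24 genes of nonsense-mediated decay and the exon junction complex had 8 above and 11 below, then 7 and 4. Nbas, a member of that list, had 511 reads against 361 and 354 and then 137 against 99 and 89. The 6 LSm ring genes had 2 above and 2 below, then 2 and 3. In these splicing lists Wdr77 at the 1-cell stage was the single gene at least 2-fold outside both single injections. Of all genes, 1.7% were outside in this way at the 1-cell and 1.39% at the 2-cell stage.

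Cytosolic ribosomal protein genes mostly had the combined library above both single ones at the 1-cell stage and between them at the 2-cell stage. Of 47 genes, 33 (70.2%) had the combined library above both single libraries at the 1-cell stage and 2 (4.26%) below. Their median log2 difference was 0.24. At the 2-cell stage 0 were above, 14 (29.8%) were below, the others lay between, and the median was -0.22. Rps3 had 220 reads with both, 178 with Snrpb, 121 with Snrpd2 and 296 with mCherry in 1-cell embryos, and 700, 719, 1085 and 916 in 2-cell embryos. Rps9 had 460, 394, 361 and 682, and then 567, 489, 990 and 747. The 2-cell Snrpd2 library was the high one in these, and 31 of the 47 genes lay between the single injections with Snrpd2 the higher. Without that library the 2-cell median was 0.08 and without the 2-cell Snrpb library -0.47, so the direction at that stage rested on the Snrpd2 library. In the 1-cell libraries the median was 0.25 without the Snrpb and 0.20 without the Snrpd2 library. Only those of these genes with 50 reads or more in all 6 libraries were placed in length classes. Of them 31 were in the shortest class, 0 in the longest and 1 in each class between. With the length trend of each library removed the medians over the 47 genes were 0.25 and -0.13. Oxidative phosphorylation genes, 56 in number, had 21 above and 20 below at the 1-cell stage and 5 above and 21 below at the 2-cell stage. Their 2-cell median was -0.12 and it turned to 0.05 without the Snrpd2 library.

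Lists of maternal RNA and of the cell cycle had more genes below than above in the combined 1-cell library. Among 69 oocyte and maternal-effect genes, 36 (52.2%) were below both single libraries and 18 (26.1%) above. H1foo, the linker histone of the oocyte, had 25526 reads with both, 53758 with Snrpb, 48637 with Snrpd2 and 20074 with mCherry. Tcl1, a cofactor of AKT, had 64909, 106617, 115408 and 42952. Gdf9, an oocyte growth factor, had 44414, 78012, 60353 and 41441. In H1foo and Gdf9 the combined library lay nearer to the mCherry library than to either single one. Nlrp14, another abundant maternal gene, went the other way, with 113473 reads against 94345 and 117549. After scaling it was above both single libraries. Its ratio was 1.34 (1.33 to 1.35) to the Snrpb library and 1.02 (1.01 to 1.03) to the Snrpd2 library. The list's median was -0.05, and it was 0.01 when libraries were scaled by their totals. In 2-cell embryos 17 were above and 16 below. Of 46 cell cycle regulators, 27 (58.7%) were below and 13 (28.3%) above at the 1-cell stage, with a median of -0.12 that was -0.05 under library totals and -0.06 without the Snrpb library. Gmnn, the inhibitor of replication licensing, had 2605 reads against 3611 and 4457, with 2453 in the mCherry library. Mad2l1 of the spindle checkpoint had 19500 against 26445 and 27540, with 18740. Ccnd2, a D-type cyclin, was the highest of the list, with 89 reads against 24 and 57. The cell cycle list had 10 above and 13 below at the 2-cell stage.

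Lists of DNA damage and repair had 0 genes at least 2-fold outside both single injections. Over all genes the share was 1.7% at the 1-cell and 1.39% at the 2-cell stage, at which lists of this size would hold few such genes. The 39 genes of damage signalling had 15 above and 14 below at the 1-cell stage and 11 and 10 at the 2-cell stage. H2afx, the histone variant that is phosphorylated at breaks, had 599 reads with both, 906 with Snrpb, 1155 with Snrpd2 and 544 with mCherry in 1-cell embryos. In 2-cell embryos it had 1738, 2049, 2556 and 2011. The 34 targets of p53 had 9 above (26.5%) and 13 below (38.2%), then 6 (17.6%) and 7 (20.6%). The 37 genes of homologous recombination and the Fanconi pathway had 7 above (18.9%) and 13 below (35.1%), then 13 (35.1%) and 8 (21.6%). The 44 of the other repair pathways had 11 and 18 (40.9%), then 15 (34.1%) and 12 (27.3%). Of all genes, 34.7% were above and 31.5% below at the 1-cell stage, and 27.4% and 27.6% at the 2-cell stage. Bard1, the partner of BRCA1, was the lowest of its list, with 912 reads against 1159 and 1085 and then 40 against 60 and 119. A list of 2-cell stage and zygotic activation genes, 31 in number, had 15 above and 8 below at the 1-cell stage and 5 and 9 at the 2-cell stage. Summed over the 32 genes found, its level was 3798 scaled CPM with both, 4227 with Snrpb and 3988 with Snrpd2 in 1-cell embryos. In 2-cell embryos it was 4315, 4355 and 4206, so RNA of the list was not particular to that stage.

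**Figure D5:**
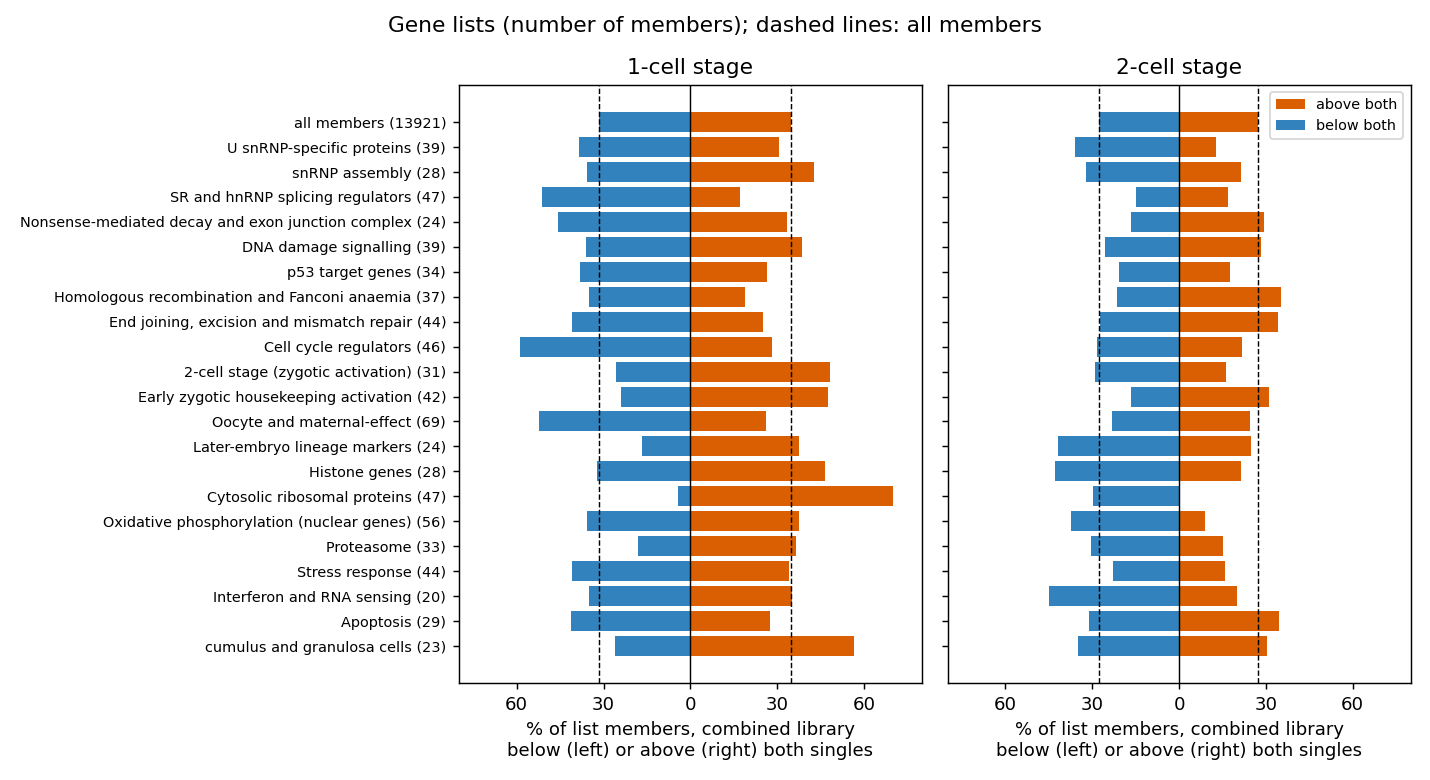
Share of each list's members (horizontal axis, %) whose combined library lay below (blue) or above (orange) both single libraries, at the 1-cell (left) and 2-cell stage (right), for lists with 20 members or more. Dashed lines mark the shares of all 13921 genes, and the bar of the ribosomal proteins reaches 70.2% above at the 1-cell stage and 0% at the 2-cell stage.

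Genes of cumulus and granulosa cells were looked at because Ptx3, Fst and Inhba, described above, belong to that list. Of its 23 members, 13 (56.5%) were above both single libraries at the 1-cell stage and 6 (26.1%) below, with a median of 0.36. Of all genes, 34.7% were above and 31.5% below at that stage. The list's count above and its median include Ptx3, Fst and Inhba, which were already known to be above. Ptx3 reached the minimum of reads for a compared gene only in the combined 1-cell library (119 reads). The list's share above is therefore partly set by how the list was chosen. Without the Snrpb library the list's median was 0.83 and without the Snrpd2 library 0.15. Ptgs2, which makes prostaglandins during cumulus expansion, had 413 reads with both, 244 with Snrpb, 229 with Snrpd2 and 55 with mCherry. Tnfaip6, a matrix protein of the cumulus, had 713, 589, 363 and 103. Has2, the hyaluronan synthase, had 133, 112, 125 and 80. Against these, Grem1 had 47 reads with both, 134 with Snrpb, 106 with Snrpd2 and 12 with mCherry. Hsd3b1 had 16 with both, 181 with Snrpb and 35 with Snrpd2, and Star, the cholesterol carrier, 128, 224 and 133. The summed level of the 32 listed genes was 591.5 scaled CPM in the combined library, 658.6 with Snrpb, 590.3 with Snrpd2 and 576.4 with mCherry. At the 2-cell stage it was 242.4, 230.2, 281.1 and 262.2. Most of the 1-cell sum was Serpine2, with 21040 reads in the combined library. Ereg had 0 reads in each, and Pgr had 0 in each 1-cell library. The part of such cells in the genes above was not tested. In the 1-cell combined library 5 of 20 listed fibroblast and smooth muscle genes had 0 reads, among them Col1a2, Col3a1 and Lum. Their summed level was 128.3 scaled CPM against 135.2 and 140.2, most of it Myh11 with 4242 reads. Blood genes summed to 14.69 scaled CPM against 14.08 and 11.57, most of it Cd52 with 548 reads. Hbb-bt, Hbb-bs and Hba-a1 had 0 reads in the 1-cell libraries. Listed oviduct genes summed to 174.7 scaled CPM against 187.7 and 211.8, nearly all of it Cdh1 with 8121 reads. Sperm genes summed to 125.0 against 126.8 and 178.1, nearly all of it Odf2 with 5717 reads. Such sums follow single genes and do not measure the amount of a cell type.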

How the data were processed

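The deposited tables gave, for each library, whole-number read counts per Ensembl gene and cRPKM, an RPKM value computed by the authors. Per the submitters' processing notes the build was mm9, and the libraries were made with a stranded kit, per the labels' protocols. Aligner, annotation, strand use in counting and how multi-mapping reads were handled are not stated in the sources used here, so overlapping genes and genes with near-identical copies are uncertain. Identifiers without a value in the tables were left out. Symbols came from GENCODE vM21 for 13740 of the 13921 genes, and no coordinates were taken from it. The Jun promoter came from RefSeq (GRCm38.p6).

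Counts were fitted with edgeR 4.0.16 in R 4.3.3 (quasi-likelihood test, TMM scaling, Benjamini-Hochberg adjustment over 13921 genes, calls at 0.05). One fit had terms for stage and for combined against single, and the other had 4 groups of stage by combined or single. P-values measure the spread between differently injected pools. Only 1 library per condition was used, and each was a pool. Alternatives were DESeq2 1.42.0, limma 3.58.1 on log2(cRPKM + 0.1) and log2(cRPKM + 1), other scalings and filters, each library left out, and each single injection as the sole comparator. Ratios of a pair of libraries used TMM-scaled counts with exact conditional binomial 95% intervals. They and the floor of 3 reads cover counting error only, as PCR reads lacking molecular identifiers are no independent molecules. Distances to the nearer single library used a prior of 0.5 reads.

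Genes named were the 8 highest and 8 lowest on 1 side at both stages, the 6 highest and 6 lowest at each stage, the 4 with the smallest interaction p in each direction, and the highest and lowest of each list described. Genes with 200 reads or more and those passing an alternative test were named after their values were seen, as were further list members. The genes compared and the 27 lists (948 genes, 805 of them compared) were chosen with earlier results of these data known.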

Additional observations from a re-analysis of the deposited data

How the results depend on the processing

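Over the 4 fitted comparisons, 54 of 59 alternatives called 0 genes. DESeq2 called 6 genes at the 1-cell stage, and with Snrpd2 alone as the comparator over both stages 1 gene passed (Pcdh8, log2 difference -1.68, edgeR adjusted p 0.0213, up to 1 over 18 alternatives, 1 of them of opposite sign). Leaving out 1 library gave 0 to 5 calls at the 1-cell stage, 0 over both stages and at the 2-cell stage, and 0 to 3 for the interaction. The 5 calls without the 1-cell Snrpb library were Itgav, Krt8, Gja1 and Jun (higher) and Mphosph6 (lower). The 4 without the 1-cell Snrpd2 library were Mmp9, Sfrp2 and Ctsk (lower) and Fjx1 (higher), and Mmp9, Sfrp2 and Ctsk were the 3 of the interaction. Each of these genes passed 1 of 14 alternatives at the 1-cell stage, except Jun and Fjx1, which passed 2, and its highest adjusted p was 1. For Ctsk and Mmp9, 1 alternative had the opposite sign. In those fits the lone library left was assumed to vary like the others. Removing the length trend of each library, or leaving out the 1-cell Snrpb and 2-cell Snrpd2 libraries together, both chosen after seeing the data, gave 0.

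The 236 and 194 genes 2-fold outside both single injections at the 1-cell and 2-cell stage became 492 and 552 at 1.5-fold, 78 and 41 at 4-fold, and 94 and 30 with a minimum of 200 reads. The 8 outside at both stages became 23, 0 and 0. The 1-cell pairs (combined with Snrpb, combined with Snrpd2, the single injections) gave 1387, 1433 and 1375 genes at 1.5-fold, 281, 270 and 277 at 4-fold and 248, 321 and 260 at 200 reads. The 2-cell pairs gave 1703, 2052 and 2778, then 103, 118 and 143, then 127, 180 and 336. For 48 results of genes named for their difference or interaction, 727 of 728 alternative values kept their direction and side of the threshold. These hold no value of a gene named only from a list or for passing an alternative. The other value was Sfrp2 at the 1-cell stage, at -10.53 without the Snrpd2 library. These genes were chosen for lying outside the single libraries or for a small interaction p, and none passed the main test. That directions were kept and tests stayed above the threshold was thus largely set by the choice and is no support for the genes. No paired analysis was possible because each condition has 1 library, and the number 1 that each carries pairs nothing.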

Other observations

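Genes of other processes, from the remaining lists, had 0 members that passed edgeR's test, as had all 13921 genes. Over all genes the combined library was above both single libraries in 34.7% and below both in 31.5% at the 1-cell stage. At the 2-cell stage the shares were 27.4% and 27.6%. Of 42 housekeeping genes activated early in the embryo, 20 had the combined library above both single libraries at the 1-cell stage and 10 below, then 13 and 7 at the 2-cell stage. Myc, a transcription factor of growth, was the highest of them, with 71 reads with both, 56 with Snrpb, 15 with Snrpd2 and 51 with mCherry, and then 611, 483, 522 and 670. Of 28 histone genes and chaperones, 13 were above and 9 below, then 6 and 12. Hira, the chaperone that deposits a histone H3 variant, had 671 reads against 503 and 510 and then 357 against 315 and 263. Among 24 later lineage genes, 9 were above and 4 below, then 6 and 10. Sox17, an endoderm factor, had 639 reads with both, 563 with Snrpb, 1538 with Snrpd2 and 699 with mCherry at the 2-cell stage.

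Of 33 proteasome genes, 12 were above and 6 below at the 1-cell stage, then 5 and 10. Psmd3, a subunit of the regulatory particle, had 5220 reads with both, 7159 with Snrpb, 9326 with Snrpd2 and 3133 with mCherry in 1-cell embryos. Of 44 stress response genes, 15 were above and 18 below, then 7 and 10. Cat, catalase, had 112 reads against 67 and 45, with 83 in the mCherry library. The 20 interferon and RNA sensing genes had 7 above and 7 below, then 4 and 9, and Isg15 had 45 reads against 87 and 98 at the 2-cell stage. The 29 apoptosis genes had 8 above and 12 below, then 10 and 9.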
